A study of Homo sapiens with 4 samples.

Results

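The 10 genes described here encode proteoglycan core proteins and the enzymes that edit heparan sulfate after it reaches the cell surface. They were BGN, DCN, LUM, VCAN, SULF1, SULF2, SDC1, SDC4, GPC1 and HSPG2, and they were found by gene symbol as 10 of the 17791 rows of the deposited count table. The genes were chosen by name with earlier CPM levels and ratios of these same libraries known, among them the low SULF1 and BGN of the gels, so their values are a description and no p-value is given. RNA was sequenced from 3 kinds of engineered prostate cancer tissue (EPCaT) and from a flat coculture, with 1 library in each of the 4 groups and therefore no replicates. Every group held PC-3 cells, a line from a bone metastasis of a prostate carcinoma, together with BJ-5ta cells, foreskin fibroblasts immortalised with telomerase. The PF EPCaT was a gel of poly(ethylene glycol) coupled to fibrinogen, seeded at 5 PC-3 cells to 1 BJ-5ta cell and sampled on day 15. Adding 2% or 3% of poly(ethylene glycol) diacrylate (PEGDA) to the same gel gave the PF+2%PEGDA and the PF+3%PEGDA EPCaT, sampled on the same day. The 2D coculture held both lines on a flat surface, and its day and cell ratio are not given in the sources used here. Each EPCaT library pooled RNA of more than 2 tissues, and 1000000 cells gave the RNA of the 2D library. The labels give no treatment for any group.

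Proteoglycans are core proteins that carry long sulfated sugar chains. Syndecans span the plasma membrane and glypicans are tied to it by a lipid anchor, and both hold heparan sulfate at the cell surface, where the chains bind growth factors such as the fibroblast growth factors and present them to their receptors. Perlecan, the product of HSPG2, carries heparan sulfate in basement membranes. The extracellular sulfatases SULF1 and SULF2 remove 6-O-sulfate groups from finished heparan sulfate chains and so change which ligands the chains can hold. Biglycan, decorin and lumican (BGN, DCN and LUM) are small leucine-rich proteoglycans that bind collagen fibrils, and versican (VCAN) is a large chondroitin sulfate proteoglycan of loose matrix. In tissues the last 4 are made mainly by fibroblasts and related stromal cells, whereas syndecan-1 (SDC1) is typical of epithelium.

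Each library held 13760301 to 15687894 counts in all. Levels are given as CPM, counts per 1000000 of the scaled library size. A ratio is called higher or lower here when it was at least 2-fold and its 95% interval excluded equality. The intervals cover counting error only, not the variation between cultures or library preparations. Of the 10 genes, 10 passed the minimum of 1 CPM in at least 1 library. HSPG2 was higher than 2D in all 3 EPCaTs, and SDC1, SULF1, BGN and LUM were lower in all 3. SULF2 was lower with 2% and 3% PEGDA, DCN in the PF EPCaT, and SDC4 was higher with 3% PEGDA. GPC1 and VCAN passed the rule in no comparison. Values given for the gels run through PF, 2% PEGDA and 3% PEGDA.

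**Figure D1:**
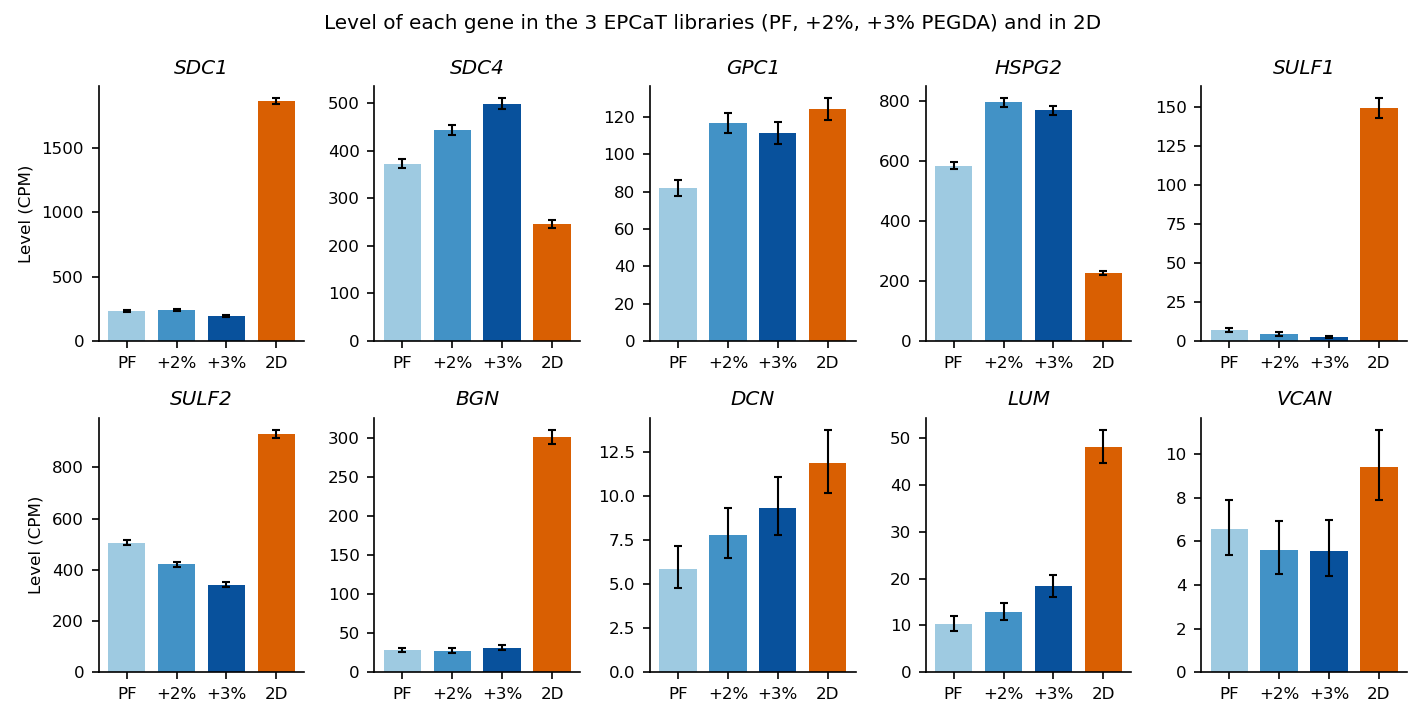
Level in CPM of each gene (vertical axis, linear, starting at 0 and scaled to each gene) in the PF, the PF+2%PEGDA and the PF+3%PEGDA EPCaTs and in the 2D coculture, with 1 library per bar and exact 95% Poisson intervals. SDC1, SULF1 and BGN stand far above the gels in 2D, SDC4 and HSPG2 stand lowest in 2D, and DCN and VCAN lie under 12 CPM in all 4 libraries.

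In number, the PF EPCaT set against 2D had 1 of the 10 genes higher and 5 lower. The background in that comparison was 16.5% higher and 12% lower among the 14851 genes tested. In the PF+2%PEGDA EPCaT 1 was higher and 5 lower, against 12.4% and 9.45% of all tested genes. In the PF+3%PEGDA EPCaT 2 were higher and 5 lower, against 12.1% and 10.4%. The same call was made in all 3 EPCaTs for 1 higher and 4 lower genes, where 7.85% and 6.07% of all tested genes had it. The median log2 ratios of the 10 were -0.94, -0.94 and -1.07 in the PF, the PF+2%PEGDA and the PF+3%PEGDA EPCaTs, beside 0.02, 0.01 and 0.00 over all tested genes. The 3 comparisons share the 2D library, so they do not check each other.

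Among the cell surface heparan sulfate carriers, the level of SDC1 was lower in each gel than in 2D and that of SDC4 was above 2D in each gel. SDC1 lies on chromosome 2 (20200797 to 20225433, GRCh38, as for all coordinates of genes here). SDC1 measured 232, 239.7 and 192 CPM in the PF, the PF+2%PEGDA and the PF+3%PEGDA EPCaTs, against 1867 CPM in the 2D coculture. The 3 gels lay close together and the flat culture stood 7.79- to 9.72-fold above them, with 27414 counts behind its value. SDC1 was thus among the 157 lowest ratios of the 14851 tested genes in each comparison with 2D. SDC4 (chromosome 20, 45325288 to 45348424), a syndecan found on most adherent cells and in focal adhesions, measured 372, 444 and 498 CPM in the 3 gels, against 245 CPM in 2D. For SDC4 each gel lay above the flat culture, and the 4 libraries differed from their neighbours in order beyond counting error. The log2 ratios of SDC4 to 2D were 0.60 (interval 0.54 to 0.66), 0.86 (0.80 to 0.92) and 1.02 (0.96 to 1.08) in the PF, the PF+2%PEGDA and the PF+3%PEGDA EPCaTs, so the 2-fold size was passed with 3% PEGDA alone and by a small margin. GPC1 (chromosome 2, 240435671 to 240468078), a glypican of many adult tissues, measured 81.8, 117 and 111 CPM in the gels, against 124 CPM in 2D. It stood lowest in the PF EPCaT, and its PF+2%PEGDA and 2D levels did not differ beyond counting error.

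The balance between SDC1 and SDC4 can be read within each library, where no scaling between libraries enters. Per kb of transcript, SDC4 stood at 2.02 times the SDC1 level in the PF EPCaT (interval 1.94 to 2.10), 2.33 times in PF+2%PEGDA (2.24 to 2.43) and 3.27 times in PF+3%PEGDA (3.12 to 3.42), against 0.165 times in the 2D coculture (0.160 to 0.171). SDC1 was therefore the leading syndecan of the flat culture and SDC4 that of each gel. Of the 4 syndecan genes summed per kb, SDC4 made up 61.5%, 64.9% and 69.7% in the gels, against 13.8% in 2D. SDC1 made up 30.4%, 27.8% and 21.3% in the gels, against 83.7% in 2D. The other syndecans stayed minor, with SDC2 at 5.33% to 7.25% in the gels, against 1.75% in 2D, and SDC3 at no more than 1.99% in any library. The summed syndecan level was 232, 262 and 274 CPM per kb in the gels, against 678 CPM per kb in 2D.

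**Figure D2:**
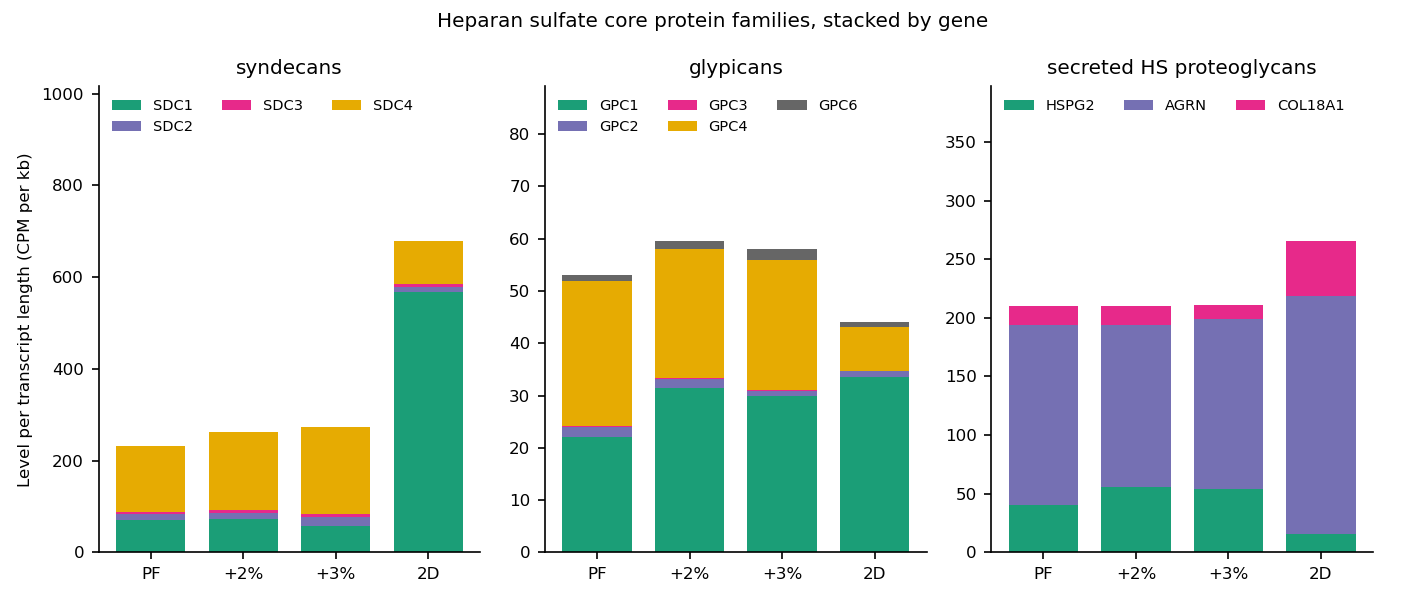
Levels per transcript length (CPM per kb, vertical axes starting at 0) of the syndecan, glypican and secreted heparan sulfate (HS) proteoglycan genes, stacked by gene, in the 3 EPCaT libraries and in 2D. SDC1 fills most of the syndecan bar in 2D and SDC4 most of it in each gel, while GPC4 and HSPG2 take larger parts of their families in the gels than in 2D.

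Among glypicans the balance also moved. GPC4, another glypican, was 2.97- to 3.34-fold higher in the 3 EPCaTs than in 2D, at 138, 123 and 123 CPM in the gels, against 41.3 CPM in 2D. Per kb, GPC1 made up 41.6%, 52.9% and 51.6% of the glypican sum in the gels, against 75.9% in 2D. GPC4 made up 52.5%, 41.6% and 42.8% in the gels, against 18.9% in 2D. The glypican sum held GPC1, GPC2, GPC3, GPC4 and GPC6. It was 53.0, 59.5 and 58.1 CPM per kb in the gels, against 44.1 CPM per kb in 2D.

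HSPG2 (chromosome 1, 21822245 to 21937297) was the gene of the set that was higher in every gel. It measured 583, 795 and 769 CPM in the PF, the PF+2%PEGDA and the PF+3%PEGDA EPCaTs, against 226 CPM in the 2D coculture. All 3 gels stood 2.58- to 3.52-fold above the flat culture. The related genes of secreted heparan sulfate proteoglycans did not follow it. AGRN, which encodes agrin of basement membranes and synapses, measured 1132, 1023 and 1075 CPM in the gels, against 1498 CPM in 2D, within 2-fold. COL18A1, whose collagen chain carries heparan sulfate and gives rise to endostatin, was 2.88- to 3.87-fold lower in the gels. Per kb, HSPG2 made up 19.4%, 26.5% and 25.4% of the 3 secreted core genes in the gels, against 5.95% in 2D, and AGRN was the most abundant of them in every library. The sum of the 3 was 210.1, 209.7 and 211 CPM per kb in the gels, against 265 CPM per kb in 2D.

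The counting of HSPG2 has a limit. Of its exonic bases, 11.7% overlap LDLRAD2 on the opposite strand, and the library kit does not mark strand, so reads of the pair in that stretch cannot be told apart. LDLRAD2 measured 6.12, 9.02 and 4.40 CPM in the gels, against 27.8 CPM in 2D, far below HSPG2 in every library and highest in 2D, where HSPG2 was lowest. The overlap was 4.63% for SULF2 with opposite-strand genes and 3.05% for VCAN with VCAN-AS1, and 0% for the other members. NCOA3, a partner of SULF2, measured 184, 145 and 140 CPM in the gels, against 181 CPM in 2D. Its reads in the shared stretch were not separated from those of SULF2. Shared 50-base stretches with other genes reached 1.15% of the transcript in BGN and were 0% in the rest.

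The start regions of the heparan sulfate carriers SDC1, SDC4 and HSPG2 are shown because HSPG2 and SDC4 stood above 2D in the gels and SDC1 below it. RefSeq gives 300-base windows, 250 bases before to 50 after each start, for 7 of the 10 genes on GRCh38.p14, with DCN, LUM and SULF1 not matched. Capitals mark GC boxes, GGGCGG or its reverse complement CCGCCC, the letters that Sp1-type factors are known to bind. The windows are HSPG2 at chr1:21937261-21937560, SDC4 at chr20:45348375-45348674 and SDC1 at chr2:20225426-20225725, all on the minus strand and written 5′ to 3′.
HSPG2: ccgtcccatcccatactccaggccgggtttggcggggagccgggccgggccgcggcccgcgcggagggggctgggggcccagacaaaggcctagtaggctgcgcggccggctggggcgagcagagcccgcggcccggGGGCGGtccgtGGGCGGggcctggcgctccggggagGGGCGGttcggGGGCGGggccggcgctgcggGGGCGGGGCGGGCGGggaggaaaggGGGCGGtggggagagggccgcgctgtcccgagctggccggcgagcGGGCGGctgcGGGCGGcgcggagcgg
SDC4: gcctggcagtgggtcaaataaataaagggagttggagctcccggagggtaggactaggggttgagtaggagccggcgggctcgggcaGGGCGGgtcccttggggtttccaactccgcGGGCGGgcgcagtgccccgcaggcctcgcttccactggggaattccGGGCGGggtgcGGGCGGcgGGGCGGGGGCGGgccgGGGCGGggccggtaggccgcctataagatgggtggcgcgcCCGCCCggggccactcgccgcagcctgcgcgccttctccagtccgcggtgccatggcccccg
SDC1: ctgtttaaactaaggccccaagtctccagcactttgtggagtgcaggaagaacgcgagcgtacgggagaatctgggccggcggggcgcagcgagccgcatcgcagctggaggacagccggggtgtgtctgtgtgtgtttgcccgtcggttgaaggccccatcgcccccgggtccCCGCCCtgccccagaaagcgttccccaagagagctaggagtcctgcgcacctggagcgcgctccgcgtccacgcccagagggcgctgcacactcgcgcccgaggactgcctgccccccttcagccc
The HSPG2 window held 10 GC boxes, the SDC4 window 8 and the SDC1 window 1, counting matches that overlap each other. A second SDC1 start, at chr2:20225081-20225380, also held 1. BGN, a gene lower in the gels, held 5, GPC1 held 4 and VCAN held 1. The 4 starts of SULF2, a gene lower in the PEGDA gels, held 0, 0, 5 and 1. Of 35116 RefSeq windows of this length, 45% held at least 1 GC box and 5.14% held 5 or more. The hypoxia-response core, ACGTG or GCGTG on either strand, was in neither the HSPG2 nor the SDC4 window and occurred in 48.4% of all windows. It matched 1 time in the first SDC1 window, and no GC box overlapped it. Among the windows not shown, it matched only in SULF2, 3 times in the second start and 2 times in the third. A match is only a run of letters, and these libraries hold no measurement of binding.

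Of the sulfatases that edit heparan sulfate, SULF1 was lower in all 3 gels and SULF2 in the PEGDA gels, SULF1 by the larger fold in each. SULF1 (chromosome 8, 69466624 to 69660915) had 112, 68 and 32 counts in the PF, the PF+2%PEGDA and the PF+3%PEGDA EPCaTs, against 2195 counts in the 2D coculture. That is 6.72, 4.38 and 2.35 CPM in the gels, against 149.5 CPM in 2D, and no gel overlapped the flat culture. Its ratio to 2D was 22.2-fold lower in PF (interval 18.4 to 27.2), 33.9-fold lower with 2% PEGDA (26.8 to 44.1) and 62.7-fold lower with 3% PEGDA (45.0 to 93.3). With 3% PEGDA it had the 10th lowest ratio of all 14851 tested genes. SULF2 (chromosome 20, 47656348 to 47786616) measured 506, 422 and 341 CPM in the gels, against 932 CPM in 2D. Its log2 ratios to 2D were -0.88, -1.14 and -1.45, so the PF EPCaT fell short of the 2-fold size. Both sulfatases shared 1 order, highest in 2D and then PF, 2% PEGDA and 3% PEGDA, and each neighbouring pair in that order differed beyond counting error.

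SULF2 was the main sulfatase gene everywhere. Per kb, it stood at 87.5, 112 and 169 times the SULF1 level in the PF, the PF+2%PEGDA and the PF+3%PEGDA EPCaTs, against 7.24 times in the 2D coculture. SULF1 thus made up 1.13%, 0.886% and 0.588% of the pair in the gels, against 12.1% in 2D. Their sum was 104, 86.6 and 69.9 CPM per kb in the gels, against 216 CPM per kb in 2D.

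**Figure D3:**
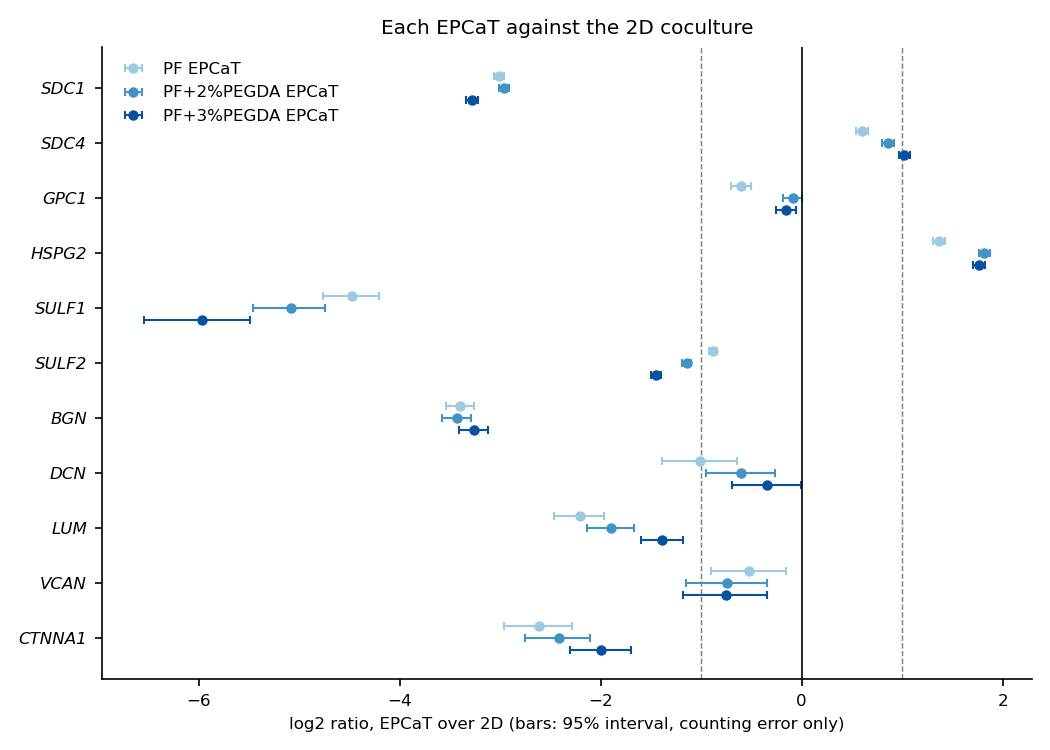
Log2 ratio to the 2D coculture (horizontal axis) of each gene and of CTNNA1 in the PF, the PF+2%PEGDA and the PF+3%PEGDA EPCaTs, with 95% intervals of counting error. The solid line marks equality and the dashed lines a 2-fold difference. SULF1 lies farthest to the left at -4.47 to -5.97, and HSPG2 lies beyond the right dashed line in all 3.

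The small leucine-rich proteoglycans, all typical of fibroblasts, did not move alike. BGN (chromosome X, 153494939 to 153509554) had 477, 435 and 429 counts in the PF, the PF+2%PEGDA and the PF+3%PEGDA EPCaTs, against 4437 counts in the 2D coculture. The gels lay within counting error of each other at 28.6, 28.0 and 31.5 CPM, against 302 CPM in 2D. LUM (chromosome 12, 91102629 to 91111831) measured 10.4, 12.9 and 18.3 CPM in the gels, against 48.0 CPM in 2D. It was 4.62-, 3.72- and 2.61-fold lower, and its PF and PF+2%PEGDA levels were the closest neighbours. DCN (chromosome 12, 91140484 to 91183123), which lies beside LUM on the same strand, measured 5.88, 7.80 and 9.32 CPM in the gels, against 11.9 CPM in 2D. Its ratio to 2D was 2.01-fold lower in PF (interval 1.57 to 2.61), 1.52-fold under it with 2% PEGDA (1.20 to 1.93) and 1.27-fold under it with 3% PEGDA (1.01 to 1.61), so the rule was passed in PF alone and at its edge. With total counts as the only scaling, or with a prior count of 2, the log2 ratio of DCN in PF was -0.829 or -0.999 and it no longer passed. Fewer fibroblasts and less RNA per fibroblast cannot be told apart in bulk samples of this kind.

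Counts of these genes were also set on those of DCN within each library. BGN had 4.87, 3.60 and 3.38 counts per DCN count in the PF, the PF+2%PEGDA and the PF+3%PEGDA EPCaTs, against 25.5 in the 2D coculture. LUM had 1.77, 1.65 and 1.97 counts per DCN count in the gels, against 4.05 in 2D. These quotients need no scaling, and they show unequal differences among the 3 genes. VCAN (chromosome 5, 83471465 to 83582303) measured 6.54, 5.60 and 5.58 CPM in the gels, against 9.40 CPM in 2D. The gels stood 1.44- to 1.68-fold under 2D, within the 2-fold size, and its 3 gel levels did not differ beyond counting error on 76 to 109 counts.

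Genes that PC-3 has lost were read beside the stromal members and SULF1. Which of the lines made the SULF1 RNA was not measured. CTNNA1, the alpha-catenin gene, is deleted in PC-3, and it had 90, 96 and 113 counts in the PF, the PF+2%PEGDA and the PF+3%PEGDA EPCaTs, against 486 counts in the 2D coculture. It was 6.10-, 5.33- and 3.98-fold lower than in 2D. BGN and SULF1 had larger folds than CTNNA1 in every gel, and LUM, DCN and VCAN smaller ones. Set on CTNNA1, DCN had 1.09, 1.26 and 1.12 counts per CTNNA1 count in the gels, against 0.358 in 2D (interval 0.299 to 0.427). LUM had 1.92, 2.08 and 2.21 in the gels, against 1.45 in 2D. VCAN had 1.21, 0.906 and 0.673 in the gels, against 0.284 in 2D (interval 0.233 to 0.344). BGN had 5.30, 4.53 and 3.80 in the gels, against 9.13 in 2D. SULF1 had 1.24, 0.708 and 0.283 in the gels, against 4.52 in 2D, so BGN and SULF1 stayed lower in the gels on this scale while DCN and VCAN stood higher. STAT3, which PC-3 has also lost, was added after its values were seen. STAT3 measured 2.52, 3.03 and 5.28 CPM in the gels, against 12.5 CPM in 2D. Reads from parts of CTNNA1 or STAT3 that PC-3 may retain were not separated here.

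Cell type markers were read beside these results. Of 24 fibroblast markers other than the genes described, 23 were tested, and 16 were lower and 0 higher in all 3 EPCaTs. Their summed level was 3957 to 5061 CPM in the gels, against 12433 CPM in 2D, with POSTN at 0 in the 2% and 3% PEGDA gels. Their median log2 ratios were -1.87, -1.74 and -2.09 in the PF, the PF+2%PEGDA and the PF+3%PEGDA EPCaTs. COL1A2, a chain of type I collagen, and PDGFRB, a receptor of mesenchymal cells, were among the 16. The list was not uniform, and the tested genes outside the 16 are named after their values were seen. S100A4 was higher with 2% and 3% PEGDA, at 63.9, 98.5 and 98.6 CPM in the gels, against 39.7 CPM in 2D. COL5A2 was higher in the PF EPCaT alone, at 513, 200.4 and 177 CPM in the gels, against 229.6 CPM in 2D. PDGFRA stayed within 2-fold, at 19.7, 20.4 and 24.9 CPM in the gels, against 17.4 CPM in 2D. SPARC was lower in the PF EPCaT alone, at 208, 481 and 392 CPM in the gels, against 576 CPM in 2D. So was VIM, at 623, 1135 and 1394 CPM in the gels, against 1851 CPM in 2D. FBN1 stayed within 2-fold, at 50.6, 60.8 and 62.4 CPM in the gels, against 68.6 CPM in 2D. TWIST1 did too, at 22.2, 20.4 and 17.5 CPM in the gels, against 18.1 CPM in 2D. Of 24 epithelial markers 5 were higher and 0 lower in all 3, with no marker at 0. Their summed level was 7688 to 8538 CPM in the gels, against 5723 CPM in 2D. SDC1, described above as typical of epithelium, went the other way, at 7.79- to 9.72-fold lower in the gels. Of 14 endothelial and blood cell markers, types that were not seeded, 7 were tested and 4 were higher in all 3: PECAM1, KDR, ESAM and LYZ. CD68, a macrophage marker that other cells also express, was lower in PF and with 2% PEGDA, at 53.3, 55.2 and 66.6 CPM in the gels, against 118 CPM in 2D. TIE1, an endothelial receptor gene, was lower in PF alone, on 6 counts in PF, against 18 counts in 2D. The summed level of the list was 314 to 429 CPM in the gels, against 159 CPM in 2D, while VWF and HBA1 had no more than 3 counts in any library. The part of cell proportions in the ratios above was not tested.

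Enzymes that build the chains were examined next, through lists chosen with earlier results known. The linker to the core protein is made by 7 genes, of which 0 were higher and 1 lower in all 3 gels. XYLT1, a xylosyltransferase that starts the linker, was that gene and is named after its values were seen, at 0.600, 0.387 and 0.293 CPM in the gels, against 2.86 CPM in 2D. Its sister XYLT2 measured 70.4, 67.1 and 60.1 CPM in the gels, against 45.1 CPM in 2D. Of the 4 tested polymerase genes none passed in all 3 gels. EXT1, a subunit of the heparan sulfate polymerase, measured 105, 121 and 107 CPM in the gels, against 222 CPM in 2D, and was lower in both the PF gel and the gel with 3% PEGDA.

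Of 16 heparan sulfate modifying enzymes, 11 were tested, and 2 were higher and 3 lower in all 3 gels. The list medians were -0.09, -0.12 and -0.16 in the PF, the PF+2%PEGDA and the PF+3%PEGDA EPCaTs. HS6ST2, which adds the 6-O-sulfate groups that the SULF enzymes remove, measured 34.7, 31.0 and 30.9 CPM in the gels, against 6.88 CPM in 2D, 4.47- to 5.02-fold higher. HS6ST1, of the same activity, measured 51.9, 45.1 and 44.4 CPM in the gels, against 35.5 CPM in 2D. HS6ST3 was also higher but scarce, at 1.80, 2.38 and 2.71 CPM in the gels, against 0.204 CPM in 2D. The 3 lower genes were HS3ST3A1, HS3ST3B1 and HS3ST5, which add 3-O-sulfate, and none exceeded 3.81 CPM in any library. These scarce genes were named after their values were seen. NDST1, an N-deacetylase and N-sulfotransferase that acts early on the chain, stayed within 2-fold at 142, 132 and 137 CPM in the gels, against 106 CPM in 2D.

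Of 10 genes for precursors and sulfate supply, 1 was higher and 0 lower in all 3 gels. It was PAPSS2, which makes the activated sulfate donor, at 60.2, 60.7 and 79.8 CPM in the gels, against 18.7 CPM in 2D. Its sister PAPSS1 measured 37.8, 36.8 and 40.3 CPM in the gels, against 49.3 CPM in 2D. Of 15 genes of glycosaminoglycan breakdown, 0 were higher and 3 lower in all 3 gels. HPSE, the heparanase that cleaves heparan sulfate chains, measured 6.84, 4.06 and 2.93 CPM in the gels, against 20.4 CPM in 2D. HEXA, a lysosomal hexosaminidase gene, and HPSE2 were the others, and HPSE2, at no more than 1.98 CPM, is named after its values were seen. Of 15 tested chondroitin and dermatan sulfate enzymes, UST and DSEL were lower and 0 higher in all 3, with list medians of -0.82, -0.38 and -0.41. UST, an uronyl sulfotransferase, measured 6.66, 6.57 and 7.85 CPM in the gels, against 36.4 CPM in 2D.

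Among other core proteins the picture was mixed. Of 8 tested heparan sulfate core genes outside the set, GPC4 was higher and COL18A1 lower in all 3 gels, with medians of 0.03, 0.16 and -0.09. Of 7 tested small leucine-rich genes outside the set, 1 was higher and 3 lower in all 3 gels, and the medians were -1.73, -0.88 and -1.66. TSKU, the 1 gene of the 7 that reached 5 CPM, had log2 ratios of 0.59, 0.90 and 0.82, within 2-fold of 2D. All 4 called genes were scarce and are named after their values were seen. ASPN and PODN had 0 counts in each gel. With 3 counts set in place of 0 in each gel library, PODN was 19.5- to 23.8-fold lower and ASPN 9.59- to 11.7-fold lower. These folds leave out counting error, and in PF against 2D the exact intervals began at 18.8-fold for PODN and 8.99-fold for ASPN. FMOD was the third lower gene, on 4, 1 and 0 counts in the gels, against 18 counts in 2D. CHAD, a cartilage matrix protein gene, was the higher one, at 4.14, 0.644 and 1.98 CPM in the gels, against 0.136 CPM in 2D. Of 9 tested chondroitin sulfate core genes outside the set, CSPG5, SPOCK1 and SPOCK3 were higher and ESM1 lower in all 3. SPOCK1, a testican proteoglycan gene, measured 114, 156 and 159.6 CPM in the gels, against 33.1 CPM in 2D. ESM1, which encodes the proteoglycan endocan, measured 1.80, 2.19 and 1.32 CPM in the gels, against 39.8 CPM in 2D.

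**Figure D4:**
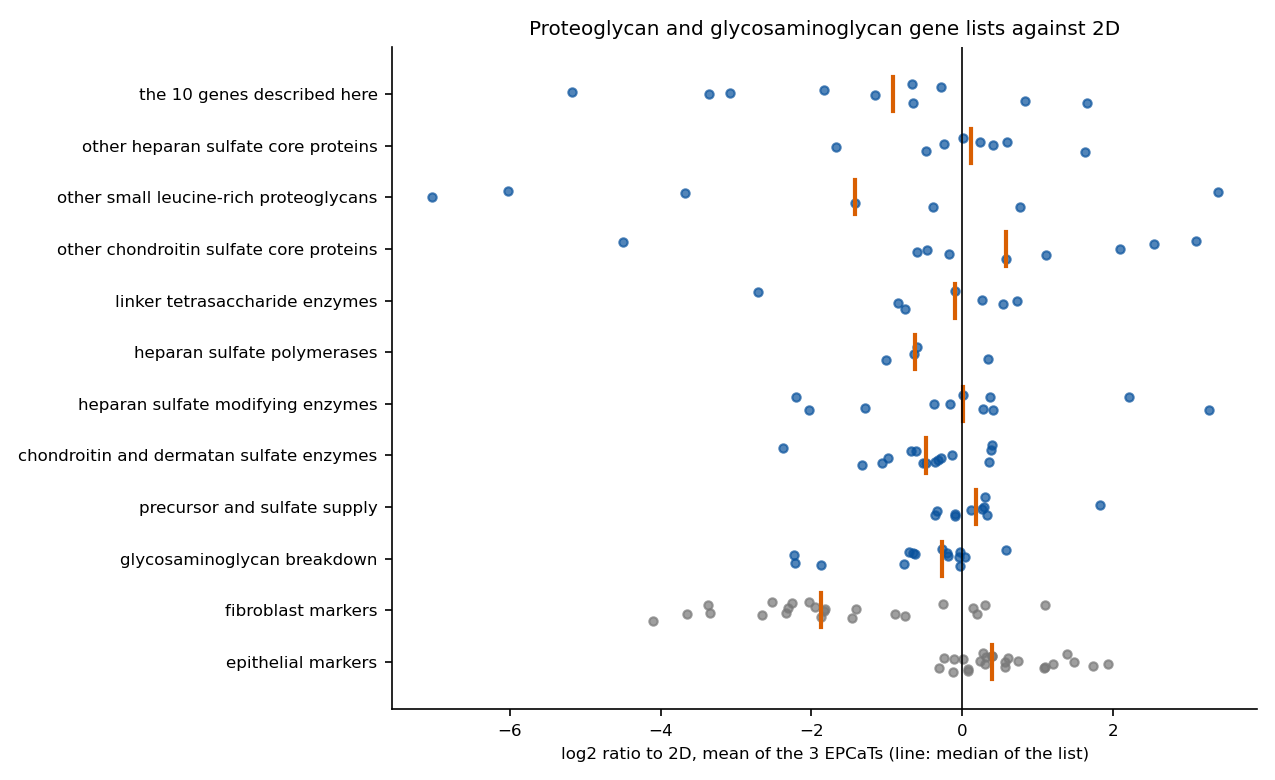
Mean log2 ratio of the 3 EPCaTs to the 2D coculture (horizontal axis) for every tested gene of the proteoglycan, glycosaminoglycan and marker lists, 1 point per gene, with the list median as a vertical line. Fibroblast markers and small leucine-rich proteoglycans have medians left of equality, epithelial markers right of it, and the heparan sulfate modifying enzymes spread to both sides. Points of ASPN and PODN, at 0 counts in the gels, and of FMOD, at 0 counts with 3% PEGDA, depend on the prior count.

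Ligands and response genes of the pathway were read beside the enzymes. Of 19 tested heparin-binding ligand genes, 1 was higher and 6 lower in all 3 gels, with medians of -0.76, -0.38 and -0.86. FGF2, a fibroblast growth factor that needs heparan sulfate to signal, measured 25.6, 22.1 and 30.7 CPM in the gels, against 66.7 CPM in 2D. GREM1, a secreted BMP antagonist, measured 3.06, 3.09 and 7.04 CPM in the gels, against 36.7 CPM in 2D. Of 12 FGF response genes, 0 were higher and DUSP5 alone was lower in all 3 gels, with medians of -0.06, 0.33 and 0.41. DUSP6, an ERK phosphatase gene commonly read as a response to FGF, measured 170.1, 201 and 197 CPM in the gels, against 162 CPM in 2D. Among 4 tested ADAMTS proteoglycanase genes, ADAMTS15 was higher in all 3 at 50.1, 57.6 and 49.7 CPM in the gels, against 19.96 CPM in 2D.

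Among the 3 gels, 1 of the 10 genes passed the rule. For PF+2%PEGDA against PF, 0 of the 10 genes were higher and 0 lower, where 2.98% of all tested genes were higher and 5.56% lower. For PF+3%PEGDA against PF, 0 were higher and 1 lower, where 3.64% and 7.49% were so called. For PF+3%PEGDA against PF+2%PEGDA, 0 were higher and 0 lower, where 1.87% and 2.39% were so called. The gene called was SULF1, with 32 counts in PF+3%PEGDA, against 112 counts in PF, 2.83-fold lower (interval 1.92 to 4.38). These comparisons share libraries and each rests on 1 library per gel.

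Step by step, several levels were ordered with PEGDA. SULF1 and SULF2 stepped down from PF to 2% and from 2% to 3% PEGDA, and SDC4 stepped up at both steps, each step beyond counting error. LUM also stood above at each step, but its first step, PF+2%PEGDA against PF, had a log2 ratio of 0.31 with an interval that nearly reached 0 (0.01 to 0.61). With total counts as the only scaling that ratio was 0.24, a shift larger than the distance of the interval from 0. In PF+3%PEGDA against PF, the log2 ratios were -0.57 for SULF2 (interval -0.62 to -0.52), 0.42 for SDC4 (0.37 to 0.47) and 0.82 for LUM (0.54 to 1.11). DCN had 0.66 (0.27 to 1.06) in that comparison. The same ratio was 0.62 (0.21 to 1.03) for CTNNA1, 1.06 for STAT3 and -0.22 for the median of the fibroblast markers. Counts per CTNNA1 count were 1.12 in PF+3%PEGDA and 1.09 in PF for DCN, with overlapping intervals. Among the gels HSPG2 and GPC1 were lowest in the PF EPCaT, at log2 ratios of 0.40 and 0.44 in PF+3%PEGDA against PF, and neither gained from 2% to 3% PEGDA. With the trend over transcript length and GC content removed, the HSPG2 ratio was 0.70. SDC1 was level between PF+2%PEGDA and PF, and in PF+3%PEGDA it stood 1.25-fold below PF+2%PEGDA (interval 1.19 to 1.31). BGN and VCAN did not differ between any of the gels beyond counting error. Of the enzymes listed above, HPSE was lower with 3% PEGDA than in PF (2.93 CPM in PF+3%PEGDA, against 6.84 CPM in PF). The scarce HS3ST3A1 was higher (1.17 CPM in PF+3%PEGDA, against 0.360 CPM in PF). The glypican gene GPC2 was lower (2.42 CPM in PF+3%PEGDA, against 5.04 CPM in PF). The chondroitin sulfate core gene SPOCK3 was higher, at 25.9 CPM in PF+3%PEGDA, against 9.60 CPM in PF. The scarce BCAN of the same list was lower, as were the scarce CHAD and ADAMTS20. Of 19 tested heparin-binding ligand genes, 4 were higher and 3 lower, where 3.64% and 7.49% of all tested genes were so called. CXCL8 was among the 4, at 61.3 CPM in PF+3%PEGDA, against 22.8 CPM in PF. Of 12 FGF response genes, FGFBP1 alone was called, higher at 70.1 CPM in PF+3%PEGDA, against 23.8 CPM in PF.

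**Figure D5:**
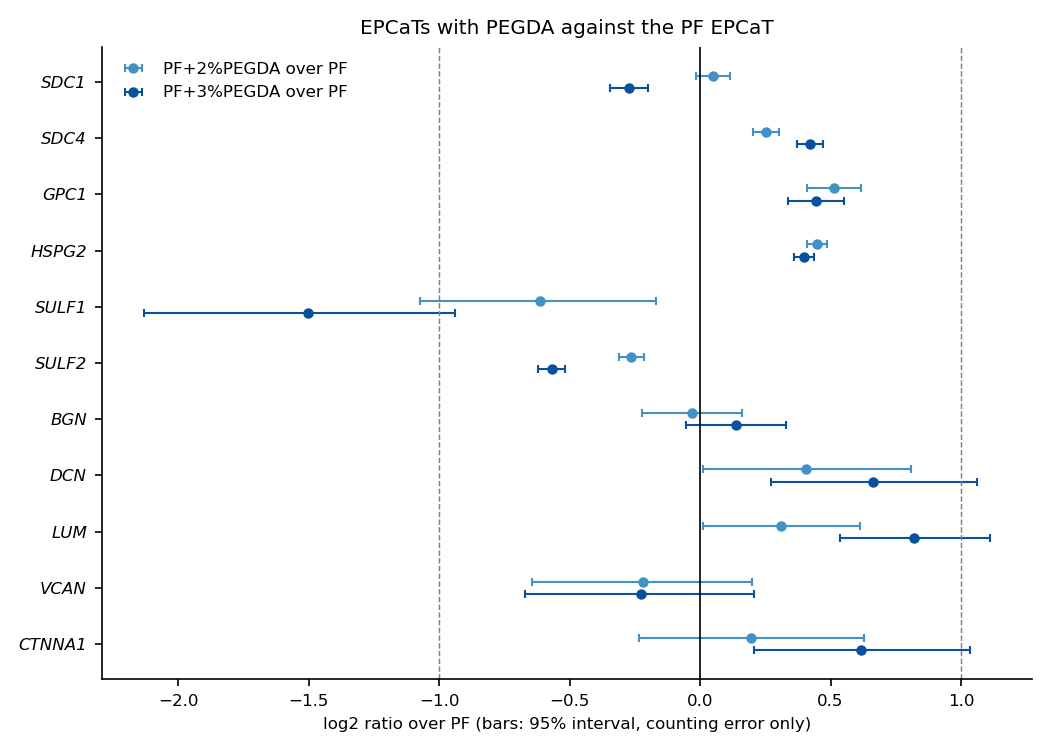
Log2 ratio to the PF EPCaT (horizontal axis) of each gene and of CTNNA1 in the EPCaTs with 2% and with 3% PEGDA, with 95% intervals of counting error. Dashed lines mark a 2-fold difference, which SULF1 passes at -1.50 with 3% PEGDA and no other gene does.

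Genes most like a member were sought only for members called the same way in all 3 EPCaTs. DCN, VCAN, SULF2, SDC4 and GPC1 were left out. Likeness was the distance between the 3 log2 ratios to 2D, over 12362 other genes with at least 5 CPM in their highest library. This is a likeness over 3 ratios that share the 2D library, given without a test. The nearest to LUM were FAM131C, STAT3 and NAT8L, at distances of 0.19 to 0.23. SDC1 lay nearest to TMEM204, SLC22A31 and OSCAR, and BGN to CHAC1, S1PR1 and OSCAR, at 0.25 to 0.32 for both. HSPG2 lay nearest to CADM2, EPHX1 and TPI1, at 0.10 to 0.14. SULF1 had no close match, since its nearest genes, ESM1, CNN1 and MARCHF4, were 1.43 to 1.70 away.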

How the data were processed

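The authors deposited 1 table of expected counts, estimated read counts per gene that were not scaled between libraries. The submitters' processing notes name FastQC, STAR and Partek and the build hg38, while versions, annotation and counting method are not given in the sources used here. Per the labels' protocols, spin columns were used for RNA and a TruSeq RNA kit for the libraries. Between 18.2% and 19.9% of values per library were not whole (tolerance 0.01), so values were rounded. Library totals were 13760301 to 15687894 counts, and 1 count was worth 0.0600 to 0.0734 CPM.

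The 14851 genes that reached 1 CPM in some library were tested. Libraries were scaled by the trimmed mean of M-values over these genes (edgeR 4.0.16, R 4.3.3). Log2 ratios used a prior count of 0.5 and exact Clopper-Pearson 95% intervals (Python 3.11.15, numpy 2.4.6, scipy 1.17.1, pandas 2.3.3, matplotlib 3.10.9). A log2 ratio of at least 1 in size with an interval excluding 0 was called. No group has replicates, so groups were not tested against each other. DESeq2 1.42.0 size factors were 1 of 7 alternatives.

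The members and gene lists were chosen with earlier results of these data known. Up to 4 genes per list, with at least 5 CPM, were picked if called alike in all 3 EPCaTs or between PF+3%PEGDA and PF. Not every picked gene is named in the text. Genes named outside this rule were chosen after their values were seen. Some values within 2-fold are given for genes that pair with a named one. Symbols, coordinates and transcript lengths came from GENCODE 29 (GRCh38), where 16628 of 17791 symbols matched. Levels per kb use the longest coding transcript, and would differ for other isoforms. A further gene that was examined is not reported here.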

Additional observations from a re-analysis of the deposited data

How the results depend on the processing

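The number of the 10 genes called higher or lower stayed within 1.5 times its value in each of the 6 comparisons, and in all 3 EPCaTs together, under DESeq2 size factors, total counts as the only scaling, a prior count of 2, no filter on low counts, a minimum of 5 CPM, values not rounded, and removal of the trend with transcript length and GC. No called ratio of a member changed sign. The exceptions among single genes were DCN in PF against 2D, at -0.829 with total counts and -0.999 with a prior count of 2, both short of the rule. With total counts the median of all tested genes moved to 0.20 in PF against 2D. HSPG2 in PF+3%PEGDA against PF was 0.70 with the length and GC trend removed, beside 0.40. Of the other small leucine-rich genes a minimum of 5 CPM left TSKU alone, at 0.59, 0.90 and 0.82 in the 3 comparisons with 2D. That minimum gave 44 higher and 116 lower genes over the whole table for PF+3%PEGDA against PF+2%PEGDA, beside 277 and 355. For PF+2%PEGDA against PF it gave 223 and 429, beside 443 and 825, and the length and GC trend gave 283 higher. For PF+3%PEGDA against PF it gave 291 and 657, beside 540 and 1112. Without a filter 420 were higher in PF+3%PEGDA against PF+2%PEGDA. No paired analysis was possible because each group has 1 library. Depth limits DCN, VCAN and SULF1 most, which had 32 to 174 counts in the gels or in 2D apart from SULF1 in 2D.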
